A study of Danio rerio with 8 samples.

Results

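Collagen genes were read from the counts of larval zebrafish heads as the rows whose symbol, ignoring case, begins with col, a type number, the letter a and a chain number. Of 32520 rows in the count table, 51 carried such a symbol, and 47 of these had at least 10 counts in at least 3 libraries and were tested, among 19412 rows that met this filter. The 47 genes span 21 collagen types and were sorted by type into fibrillar (9 genes), cartilage (11), basement membrane (9), skin (4) and other (14) collagens. Types II, XI and XXVII also form fibrils but were placed with cartilage, so the fibrillar class holds types I, V and XXIV only. The members left out by the filter were *col8a1a* with 35 counts over all 8 libraries, *col28a2b* with 28, *col19a1* with 4 and *col10a1b* with 0. The name *COL12A1* heads more than 1 of these rows, and the one listed further down is called the later *COL12A1* row.

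The libraries came from heads of *mtmr5*-KO and WT larvae of the AB strain at 7 dpf (days post-fertilization), with 4 libraries of each genotype. The *mtmr5*-KO larvae were homozygous for a CRISPR/Cas9 deletion of the whole gene, which encodes a phosphatase-dead myotubularin and is listed in the files as *sbf1*. Each library pools dissected heads of one genotype, and by the authors' account the replicates came from different breeding pairs over time. P-values cover the spread between those replicates. No label states whether same-numbered libraries of both genotypes share a breeding pair, and the main test did not pair them. A dissected head holds eyes, skin, jaw cartilage and muscle besides the brain for which the samples are named, so collagens of all these tissues were read together. In such bulk RNA, fewer cells of a type and less RNA per cell cannot be told apart.

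Collagens are secreted proteins whose chains wind into a triple helix. Fibrillar collagens assemble into the load-bearing fibres of skin, tendon and bone, and the cartilage collagens form finer fibrils around chondrocytes. Type IV collagen builds the network of basement membranes, type VII and type XVII anchor the epidermis to the layer beneath it, and the FACIT collagens (fibril-associated collagens with interrupted triple helices) coat the surface of fibrils. Because the zebrafish lineage went through a further genome duplication, many collagens have an a copy and a b copy.

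*sbf1* had 63, 55, 42 and 26 counts in *mtmr5*-KO libraries 1 to 4, against 2545, 1939, 2008 and 1894 in WT libraries 1 to 4, so every library matched its label. Total counts were 16104181 to 19170140 in *mtmr5*-KO libraries and 20514932 to 22761120 in WT libraries. The 20 most abundant rows held 48.3% to 65.2% of the counts in *mtmr5*-KO libraries and 21.8% to 28.02% in WT libraries, and the collagen genes held 7292 to 11816 counts in *mtmr5*-KO libraries against 16833 to 25664 in WT libraries. As a share of all counts the collagen genes therefore made up 0.0550% ± 0.0147 in *mtmr5*-KO and 0.0922% ± 0.0158 in WT libraries (SD, n = 4 each). Levels below are CPM, each gene's counts set to a fixed library size, on the TMM scale, which compares libraries by the bulk of their genes, with factors of 0.559 to 0.881 in *mtmr5*-KO and 1.277 to 1.601 in WT libraries. On this scale the median log2 fold change over all rows was −0.019, while scaling by library totals moves that median to −0.98, so changes are given relative to the bulk of genes.

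Of the 47 collagen genes, 4 rose in *mtmr5*-KO heads and 0 fell at an adjusted p under 0.05 by edgeR's quasi-likelihood test. The 4 were *col14a1a*, *col5a3a*, *col1a1b* and *col1a1a*, which is 8.51% of the members beside 13.5% of all rows called higher and 7.51% called lower. An unadjusted p under 0.05 was reached by 13 members. At the thresholds of the study (adjusted p under 0.01 and a change of more than 1 on the log2 scale) 2 members, *col14a1a* and *col5a3a*, were called higher and 0 lower, beside 7.13% and 1.08% of all rows. In 7 of the 8 fits that left out 1 library, all but that without *mtmr5*-KO replicate 1, only *col14a1a* remained higher at these thresholds. In the fit of all libraries with genotype alone, the share of members called higher lay under the share among all rows, and no member was called lower. With the replicate number as a further term, 7 members were called higher and 3 lower, beside 2879 and 2264 of all 19412 rows. This added *col1a2*, *col9a1a* and *col17a1a* to the higher calls and made *col4a3*, *col9a1b* and *col15a1b* the lower ones.

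The members' log2 fold changes ranged from −1.27 to 1.74 with a median of 0.27, and 17 of 47 lay below 0, where 51.1% of all rows did. All 4 *mtmr5*-KO values lay above all 4 WT values for 4 members (*col1a1b*, *col1a2*, *col5a3a* and *col14a1a*), and below them for 0, while 13.9% and 11% of all rows were separated in these ways. By class, the median was 0.52 in fibrillar collagens (3 of 9 called higher, 0 of 9 below 0), 0.11 in cartilage collagens (0 of 11 called), −0.0069 in basement membrane collagens (0 of 9 called), −0.092 in skin collagens (0 of 4 called) and 0.13 in the other collagens (1 of 14 called higher). All 15 fibril-forming genes, those of cartilage included, had a median of 0.36, with 3 called higher and 1 below 0. The 95% interval of 34 of the 47 members included 0, and for 23 it lay within 1 on either side of 0, so a change of that size or more was outside the interval only for these.

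**Figure D1:**
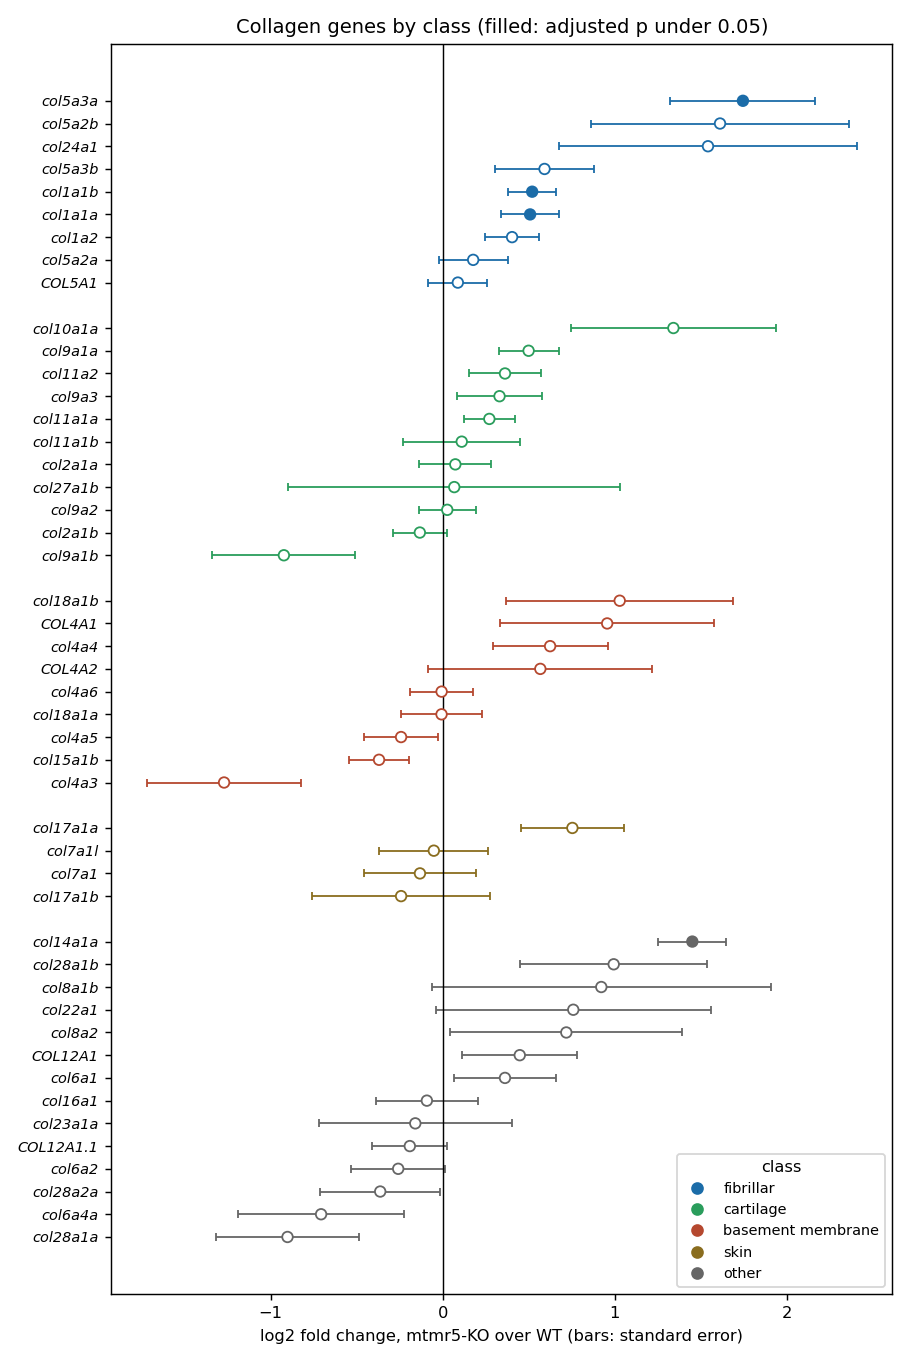
Log2 fold change of each of the 47 collagen genes, *mtmr5*-KO over WT (x axis; bars are standard errors), grouped and coloured by class, with filled points for an adjusted p under 0.05; COL12A1.1 is the later row of that name. All 9 fibrillar points lie right of 0, 3 of them filled, and the only other filled point is *col14a1a* at 1.45.

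The counts of calls rested on the scaling and on some libraries. With library totals in place of TMM, 0 members were called higher and 22 lower, beside 719 and 10819 of all 19412 rows. In that fit 40 of the 47 lay below 0, the type I chains among them. Relative to the median of all rows, all 9 fibrillar members stayed above it under each scaling tried, with medians of 0.54 on the TMM scale and 0.52 with library totals. Another scaling shifts all log2 fold changes by nearly the same amount, so this holds almost by construction and adds no support for a rise. Without WT replicate 2 the count called higher was 2, beside 2011 of all rows. Without *mtmr5*-KO replicates 3 and 4, 1 member was called higher and 1 lower, beside 1581 and 798 of all rows. That last fit was added after the data were seen, because replicates 3 and 4 had the largest share of counts in few rows.

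Among the fibrillar collagens, the chains of type I, the main protein of bone, tendon and dermis, all had estimates above 0, and 2 of the 3 passed the test, although with library totals in place of TMM all 3 estimates were below 0. *col1a1a*, which encodes the alpha 1 chain, had 43.5, 32.5, 35.6 and 39.1 CPM in *mtmr5*-KO libraries 1 to 4, against 33.8, 25.3, 26.7 and 20.2 CPM in WT libraries 1 to 4. The groups overlapped, since WT replicate 1 was above *mtmr5*-KO replicate 2. The log2 fold change was 0.51 (SE 0.17, 95% interval 0.15 to 0.87, adjusted p = 0.0437).

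*col1a1b*, the duplicate that encodes a further chain of the zebrafish type I trimer, had 54.9, 46.2, 55.9 and 56.8 CPM in *mtmr5*-KO libraries and 36.8, 32.7, 42.8 and 36.8 CPM in WT libraries. Every *mtmr5*-KO library was above every WT library, and the log2 fold change was 0.52 (SE 0.14, 95% interval 0.22 to 0.82, adjusted p = 0.0156). *col1a2*, the alpha 2 chain, had 54.9, 38.8, 45.7 and 40.1 CPM in *mtmr5*-KO libraries and 37.4, 34.7, 36.6 and 27.1 CPM in WT libraries. Its groups did not overlap either, yet its difference of 0.40 on the log2 scale (SE 0.16, 95% interval 0.07 to 0.74) had an adjusted p of 0.0838. The 3 estimates ran from 0.40 to 0.52, and each interval covered the other 2 estimates. The call of *col1a1a* was the least steady, being lost without any one of *mtmr5*-KO replicates 1, 3 and 4 and WT replicates 2, 3 and 4, and with no filter on counts. That of *col1a1b* was lost without WT replicate 2 (adjusted p = 0.0676). Both calls were also lost in the fit without *mtmr5*-KO replicates 3 and 4 and in that with library totals.

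**Figure D2:**
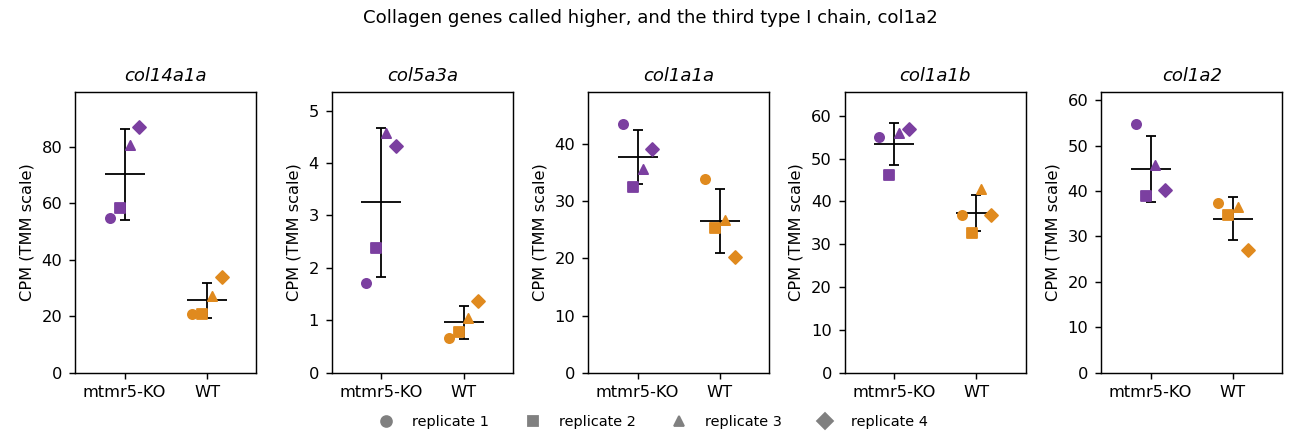
CPM on the TMM scale (y axis, from 0) of the 4 collagen genes called higher and of *col1a2* in each *mtmr5*-KO and WT library; marker shapes give replicate numbers, the long bar is the mean and the whiskers the SD (n = 4 each). *col14a1a* averaged 70.2 CPM in *mtmr5*-KO and 25.7 CPM in WT libraries, and of the 5 genes only *col1a1a* has overlapping groups.

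Type V collagen nucleates type I fibrils and limits their width, and of its 5 measured genes 1 rose. *col5a3a* had 1.72, 2.38, 4.58 and 4.33 CPM in *mtmr5*-KO libraries and 0.670, 0.775, 1.05 and 1.36 CPM in WT libraries. All *mtmr5*-KO libraries were above all WT libraries, with replicates 3 and 4 the highest of the *mtmr5*-KO group. The log2 fold change was 1.74 (SE 0.42, 95% interval 0.85 to 2.64, adjusted p = 0.00803), resting on 23, 36, 49 and 45 counts in *mtmr5*-KO and 24, 24, 30 and 38 counts in WT libraries. Without *mtmr5*-KO replicates 3 and 4 it was 1.06, with an adjusted p of 0.147.

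The other type V genes did not pass. The second copy of this chain, *col5a3b*, had 14.2, 6.69, 14.2 and 9.72 CPM in *mtmr5*-KO and 10.2, 7.53, 7.72 and 4.13 CPM in WT libraries, with a log2 fold change of 0.59 (95% interval −0.017 to 1.20). *COL5A1*, the main alpha 1 chain, differed by 0.087 (95% interval −0.27 to 0.45), and *col5a2a*, the alpha 2 chain, by 0.18 (95% interval −0.25 to 0.60). *col5a2b* was sparse, with 3 to 25 counts in *mtmr5*-KO and 8 to 11 counts in WT libraries, and its estimate of 1.61 (SE 0.75, adjusted p = 0.144) leaned on *mtmr5*-KO replicate 4 at 2.41 CPM against 0.224 to 0.795 CPM in the other *mtmr5*-KO libraries. *col24a1*, a fibrillar collagen of developing bone in mammals, had an estimate of 1.54 (SE 0.87, adjusted p = 0.230). A row listed only by identifier, with the same name in the gene name table and more counts, went the other way, at −0.90 (SE 0.62). That row is not a member and is not in the fibrillar counts.

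Summed over the 9 genes, fibrillar collagens reached 204, 157, 191 and 179 CPM in *mtmr5*-KO libraries and 149, 130, 145 and 114 CPM in WT libraries, with every *mtmr5*-KO sum above every WT sum and a ratio of means of 1.36. As a share of all counts the same genes held 0.0131% ± 0.00260 in *mtmr5*-KO and 0.0191% ± 0.00392 in WT libraries (SD, n = 4 each), so this order turned round without the TMM factors. Most of the sum was type I collagen. *col1a1a*, *col1a1b* and *col1a2* averaged 37.7, 53.4 and 44.9 CPM in *mtmr5*-KO and 26.5, 37.3 and 33.9 CPM in WT libraries. The separation of the sums is therefore not shown for the fibrillar genes outside type I. Of 14 markers of fibroblasts and mesenchyme, the cells that make these collagens, 0 rose and 1, the transcription factor *foxd1*, fell (log2 fold change −1.06, SE 0.29, adjusted p = 0.0175), with summed levels of 57.7 to 80.2 CPM in *mtmr5*-KO and 68.4 to 80.1 CPM in WT libraries. Of 6 bone markers tested 0 were called, while *runx2a*, *runx2b*, *bglap*, *ifitm5* and *panx3* were under the count filter. Epidermal markers moved beside the fibrillar genes, 13 of 22 rising and 0 falling, where 13.5% of all rows rose and 7.51% fell. The epidermal list summed to 1028 to 2461 CPM in *mtmr5*-KO and 457 to 895 CPM in WT libraries, and the larval epidermis of zebrafish also makes type I collagen. No marker of these lists was at 0 in all libraries, and their part in the result was not tested.

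**Figure D3:**
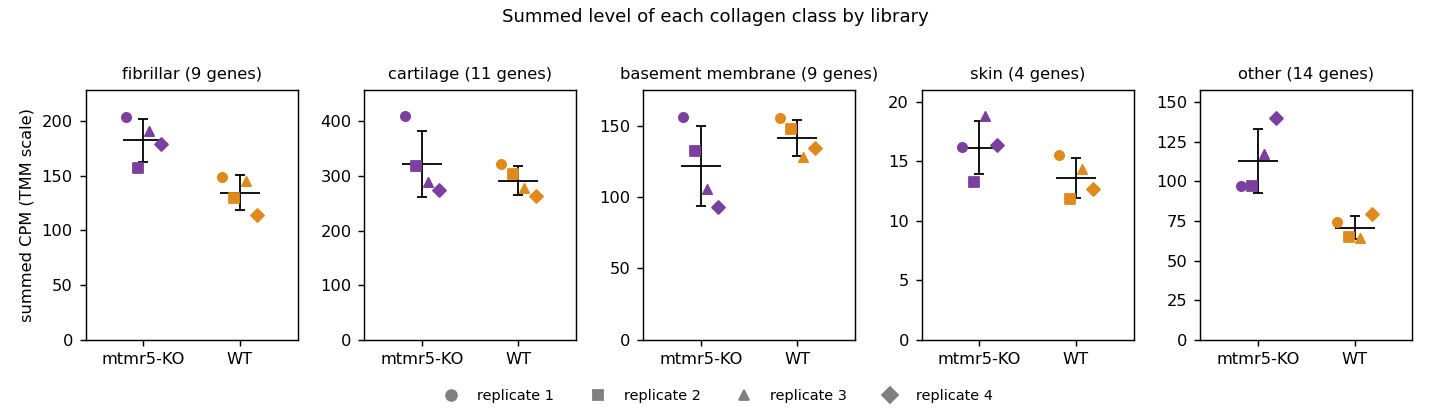
CPM on the TMM scale summed over the genes of each collagen class (y axes, from 0, each panel on its own range) in every *mtmr5*-KO and WT library; shapes give replicate numbers, the long bar is the mean and the whiskers the SD (n = 4 each). The groups do not overlap in the fibrillar class, where type I chains hold most of the sum, or, with *col14a1a* in it, in the other class. They overlap in the cartilage, basement membrane and skin classes.

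The smallest p of the members belonged to *col14a1a*, which encodes type XIV collagen, a FACIT of fibril surfaces that epithelia of the zebrafish embryo also make. It had 54.8, 58.3, 80.5 and 87.0 CPM in *mtmr5*-KO libraries 1 to 4 and 20.8, 20.9, 27 and 33.9 CPM in WT libraries 1 to 4. The lowest *mtmr5*-KO library was well above the highest WT library. The log2 fold change was 1.45 (SE 0.20, 95% interval 1.03 to 1.87, a 2.73-fold difference, adjusted p = 7.05e-05), and the gene ranked 502 among all rows by p. Its counts before scaling were 734 to 904 in *mtmr5*-KO and 647 to 946 in WT libraries, and with library totals in place of TMM its log2 fold change was 0.46 with an adjusted p of 0.0655. In every other fit tried it passed, that without *mtmr5*-KO replicates 3 and 4 included.

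No other FACIT collagen passed. The type XII gene *COL12A1*, whose product binds type I fibrils, had 16.6, 14.7, 12.6 and 25.1 CPM in *mtmr5*-KO and 23.3, 19.4, 14.01 and 21.99 CPM in WT libraries in its later row, the one with more counts. These groups overlapped throughout, with a log2 fold change of −0.19 (95% interval −0.65 to 0.27), and the row listed first had an estimate of 0.45 (adjusted p = 0.377). *col16a1* was at −0.093 (adjusted p = 0.858), and *col22a1*, a collagen of muscle-tendon junctions, at 0.76 (adjusted p = 0.545).

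Type VI collagen forms beaded filaments around cells, and none of its 3 measured genes passed. *col6a2*, next in the class by mean CPM, had 3.96, 4.44, 3.83 and 3.56 CPM in *mtmr5*-KO and 6.48, 4.88, 3.28 and 4.27 CPM in WT libraries, a log2 fold change of −0.26 (95% interval −0.84 to 0.32). *col6a1* stood at 0.36 and *col6a4a* at −0.71. The network-forming type VIII genes *col8a1b* and *col8a2*, the transmembrane *col23a1a* and the 3 type XXVIII genes had estimates of −0.90 to 0.99 and adjusted p of 0.140 or more. With *col14a1a* included, the summed level of the 14 other collagens was 96.9 to 140 CPM in *mtmr5*-KO and 64.3 to 79.6 CPM in WT libraries, while their share of all counts was 0.00798% ± 0.00107 in *mtmr5*-KO and 0.00996% ± 0.00142 in WT libraries (SD, n = 4 each). The separation of these sums rested on *col14a1a*, since the 13 genes without it summed to 42.1, 38.9, 36.7 and 52.6 CPM in *mtmr5*-KO and 53.6, 43.8, 37.3 and 45.6 CPM in WT libraries, groups that overlap.

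In the main fit (edgeR on the TMM scale, all libraries, the count filter, genotype alone), none of the 11 cartilage collagens passed the test. Of these, 2 were below 0. *col11a1a*, a type XI chain that seeds cartilage fibrils, had 129, 111, 123 and 99.5 CPM in *mtmr5*-KO libraries and 77.0, 108, 101 and 97.3 CPM in WT libraries. *col2a1a*, the principal collagen of cartilage, had 122.5, 85.0, 63.4 and 69.8 CPM in *mtmr5*-KO and 109, 80.2, 72.0 and 63.3 CPM in WT libraries. Both pairs of groups overlapped, with log2 fold changes of 0.27 (95% interval −0.045 to 0.59) and 0.073 (95% interval −0.37 to 0.52).

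*col2a1b*, its duplicate, had 40.8, 34.4, 26.4 and 35.3 CPM in *mtmr5*-KO and 43.5, 36.9, 34.8 and 35.3 CPM in WT libraries, a log2 fold change of −0.13 (95% interval −0.47 to 0.20). A change beyond 1 on the log2 scale was therefore outside the interval of each of these 3 genes. The other type XI genes, *col11a1b* and *col11a2*, had estimates of 0.11 and 0.36. *col10a1a*, the type X collagen of hypertrophic cartilage and of bone-forming cells in fish, was at 1.34 (SE 0.59, adjusted p = 0.125), with 9 to 43 counts in *mtmr5*-KO and 8 to 45 counts in WT libraries. It was called higher in the fit without *mtmr5*-KO replicate 1.

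The type IX collagens, FACITs on the surface of type II fibrils, were the cartilage members that spread most widely. *col9a1a* had 24.4, 19.7, 16.4 and 18.7 CPM in *mtmr5*-KO and 16.6, 13.6, 11.6 and 14.3 CPM in WT libraries. Its groups met only at *mtmr5*-KO replicate 3 and WT replicate 1, and its estimate of 0.50 (SE 0.17, 95% interval 0.13 to 0.87) had an adjusted p of 0.0539 (0.0374 with DESeq2). *col9a1a* was also called higher with upper quartile scaling, with the replicate number as a term, without *mtmr5*-KO replicate 3 and without WT replicate 1. *col9a1b* had 8.43, 3.91, 2.62 and 1.16 CPM in *mtmr5*-KO and 8.15, 9.53, 6.50 and 6.82 CPM in WT libraries. Replicate 1 of *mtmr5*-KO was within the WT range and the other 3 below it, for an estimate of −0.92 (SE 0.42, 95% interval −1.82 to −0.032, adjusted p = 0.134). Without *mtmr5*-KO replicate 1 that estimate was −1.59, with an adjusted p of 0.00412. *col9a2* and *col9a3* were at 0.026 and 0.33.

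The cartilage sum was 409, 318, 288 and 274 CPM in *mtmr5*-KO libraries and 322, 303, 277 and 263 CPM in WT libraries, and replicate 1 was the highest of its genotype for 8 of the 11 genes in *mtmr5*-KO and for 8 of 11 in WT. Of 18 cartilage markers that are not collagens, 4 rose (22.2%, beside 13.5% of all rows called higher) and 0 fell. These were the transcription factors *sox9a* and *sox6* and the matrix genes *snorc* and *ucmab*, with a summed level of the list of 342 to 359 CPM in *mtmr5*-KO and 227 to 258 CPM in WT libraries. *sox6*, at 137 to 188 CPM in *mtmr5*-KO and 48.6 to 80.5 CPM in WT libraries, is also expressed in developing neurons and muscle. Without it the 17 remaining markers summed to 171 to 219 CPM in *mtmr5*-KO and 164 to 179 CPM in WT libraries, so the separation of the list rested on this gene. No listed cartilage marker in the table was at 0 in all libraries, and their part in the cartilage collagen values was not tested.

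**Figure D4:**
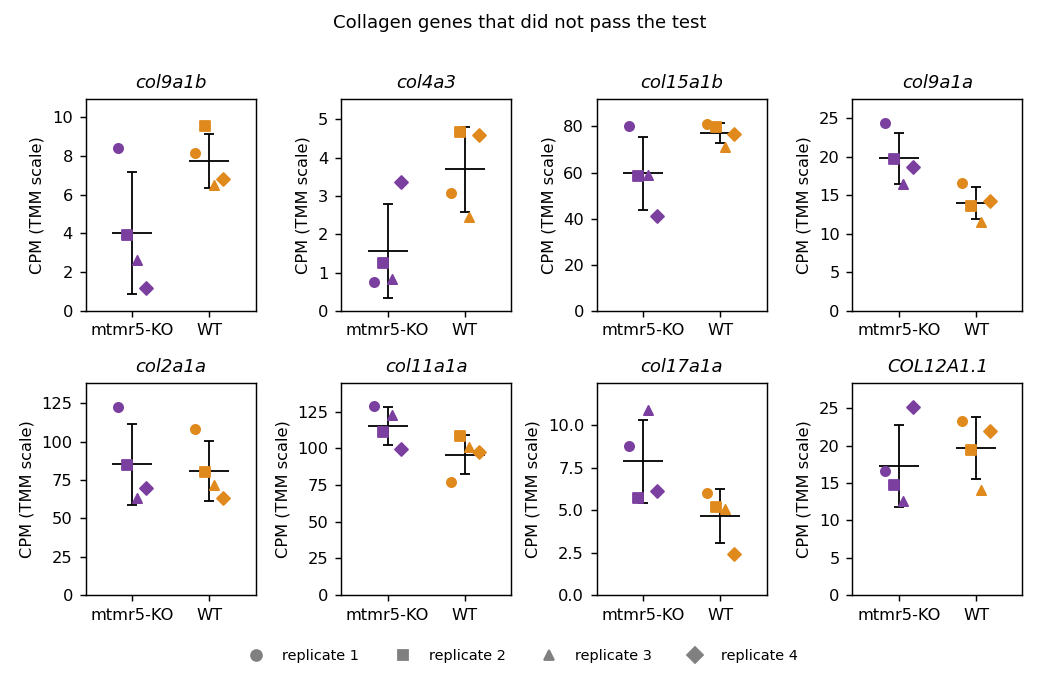
CPM on the TMM scale (y axis, from 0) of 8 collagen genes that did not pass the test in each *mtmr5*-KO and WT library, with replicate shapes, means and SDs (n = 4 each); COL12A1.1 is the later row of that name. *col9a1b* in *mtmr5*-KO runs between 1.16 and 8.43 CPM and *col4a3* between 0.746 and 3.37 CPM, ranges wider than the difference of the group means.

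In the main fit, none of the 9 basement membrane collagens passed. Of these, 5 were below 0. In some other fits on the TMM scale *col4a3*, *col4a4* and *col15a1b* passed. *col15a1b*, a type XV multiplexin of basement membranes, had 80.0, 58.4, 59.2 and 41.3 CPM in *mtmr5*-KO and 81.2, 79.8, 71.3 and 76.7 CPM in WT libraries. Replicate 1 of *mtmr5*-KO was within the WT range and the other 3 below it. The log2 fold change was −0.37 (SE 0.17, 95% interval −0.74 to −0.0016, adjusted p = 0.146), and −0.56 with an adjusted p of 0.0201 without *mtmr5*-KO replicate 1.

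The type IV chains lay on both sides of 0, none past the threshold in the main fit. *col4a5*, a chain needed for the layering of retinal axons in the zebrafish tectum, had 26.6, 22.5, 14.02 and 13.47 CPM in *mtmr5*-KO and 25.7, 25.8, 19.3 and 19.95 CPM in WT libraries. *col4a6*, its partner and neighbour in the genome, had 23.2, 17.9, 12.99 and 15.98 CPM in *mtmr5*-KO and 20.4, 16.4, 18.1 and 15.7 CPM in WT libraries. Their groups overlapped, with log2 fold changes of −0.24 (95% interval −0.70 to 0.21) and −0.0069 (95% interval −0.40 to 0.39).

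*col4a3* and *col4a4*, chains of the same mature basement membrane network that are also neighbours in the genome, lay on either side of 0. *col4a3* had 0.746, 1.26, 0.841 and 3.37 CPM in *mtmr5*-KO and 3.07, 4.68, 2.45 and 4.59 CPM in WT libraries, so that *mtmr5*-KO replicate 4 was within the WT range. Its estimate of −1.27 (SE 0.45, 95% interval −2.23 to −0.32) had an adjusted p of 0.0560, and without *mtmr5*-KO replicate 4 it was −1.97 with an adjusted p of 0.00458. It also passed with DESeq2 (adjusted p = 0.0294), limma-voom (0.0417), no count filter (0.0289) and without *mtmr5*-KO replicates 3 and 4 (0.0153). *col4a4* had 7.16, 10.3, 2.62 and 9.05 CPM in *mtmr5*-KO and 3.88, 6.01, 3.81 and 5.31 CPM in WT libraries, an estimate of 0.62 (SE 0.33, adjusted p = 0.206). Without *mtmr5*-KO replicate 3, its lowest library, *col4a4* was called higher. The 4 pairs of collagens adjacent in the GRCz12tu gene order (*col4a3* with *col4a4*, *col4a5* with *col4a6*, *COL4A1* with *COL4A2* and *col9a2* with *col16a1*) held no gene called in the main fit.

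*COL4A1* and *COL4A2*, which build the network of nearly every basement membrane, had few counts here, 8 to 19 and 3 to 23 in *mtmr5*-KO and 11 to 34 and 12 to 23 in WT libraries. At that depth their estimates of 0.96 (SE 0.62) and 0.57 (SE 0.65) left a difference not detectable. The type XVIII gene *col18a1a*, whose cleaved end is endostatin, was at −0.0074 (95% interval −0.51 to 0.50). The basement membrane sum was 156, 132, 106 and 93.0 CPM in *mtmr5*-KO and 156, 148, 128 and 135 CPM in WT libraries.

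Of 14 laminin, nidogen and other basement membrane genes that are not collagens, 0 rose and 3 fell (21.4%, beside 7.51% of all rows called lower). These were *agrn*, encoding agrin, at −0.48 (SE 0.13, adjusted p = 0.0158), and the laminin chains *lamb1a* at −0.91 (SE 0.25, adjusted p = 0.0176) and *lama1* at −1.20 (SE 0.37, adjusted p = 0.0314). The summed level of the 14 genes was 113.3 to 132.2 CPM in *mtmr5*-KO and 155 to 163 CPM in WT libraries, groups that did not overlap. Much of that sum was *agrn*, at 56.5 to 64.1 CPM in *mtmr5*-KO and 78.5 to 91.3 CPM in WT libraries. The separation is therefore not shown for the list without *agrn*. Of 13 vessel markers 1 rose (*tek*) and 1 fell (*clec14a*), with sums of 68.6 to 73.8 CPM in *mtmr5*-KO and 65.7 to 76.7 CPM in WT libraries.

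None of the 4 skin collagens passed. *col17a1a*, the hemidesmosome collagen of basal keratinocytes, had 8.81, 5.69, 10.9 and 6.16 CPM in *mtmr5*-KO and 6.03, 5.17, 5.07 and 2.40 CPM in WT libraries. The groups overlapped at *mtmr5*-KO replicate 2 and WT replicate 1, and the estimate was 0.75 (SE 0.30, 95% interval 0.12 to 1.39, adjusted p = 0.0882). Its duplicate *col17a1b* stood at −0.24 (SE 0.52).

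The type VII genes, which encode anchoring fibrils under the epidermis, did not differ beyond their spread. *col7a1* had 3.58, 3.05, 1.87 and 4.91 CPM in *mtmr5*-KO and 3.32, 2.58, 4.05 and 4.74 CPM in WT libraries (log2 fold change −0.13, 95% interval −0.83 to 0.56). *col7a1l* had 1.79, 4.04, 3.64 and 4.62 CPM in *mtmr5*-KO and 3.55, 2.84, 3.77 and 4.41 CPM in WT libraries (log2 fold change −0.052, 95% interval −0.72 to 0.62). Of the 13 epidermal markers that rose, *agr2*, of mucous cells, was at 1.85 (SE 0.33, adjusted p = 7.47e-04) and *anxa1b* at 1.36 (SE 0.27, adjusted p = 0.00177), with the sums given beside the fibrillar genes. The part of the epidermal markers in the values of *col17a1a* and *col14a1a* was not tested.

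Copies of 9 duplicated collagens could be compared within each library, where the scaling factor of the library cancels except for a small added count. That count, 2 on average and larger in libraries of larger scaled size, was added before taking logarithms. Ratios with a sparse copy therefore still depend somewhat on the scaling. The log2 ratio of *col9a1a* to *col9a1b* was 1.52, 2.3, 2.61 and 3.91 in *mtmr5*-KO and 1.02, 0.506, 0.823 and 1.06 in WT libraries, higher in all 4 *mtmr5*-KO libraries, with a difference of means of 1.74. The log2 ratio of *col17a1a* to *col17a1b* was 2.08, 3.22, 2.18 and 3.03 in *mtmr5*-KO and 1.14, 1.96, 1.73 and 1.05 in WT libraries, again with no overlap and a difference of 1.16. Each of these had an exact permutation p of 0.0286 (two-sided), the smallest that 4 against 4 allows, and 0.129 after adjustment over the 9 pairs, so neither passed.

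For the other 7 pairs the exact permutation p was 0.0857 or more. The ratio of the type I copies was the closest between genotypes, with a log2 ratio of *col1a1a* to *col1a1b* of −0.507 ± 0.130 in *mtmr5*-KO and −0.509 ± 0.329 in WT libraries (SD, n = 4 each, exact permutation p = 0.971). *col5a3a* and *col5a3b* differed by 1.00 in their log2 ratio (exact permutation p = 0.171), so the call of one copy and not the other is not a shown difference between them. The *col28a1* copies had the largest difference of the opposite sign, −1.58 (exact permutation p = 0.0857). Reads of closely similar copies may have been split or dropped when only unique reads were counted.

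**Figure D5:**
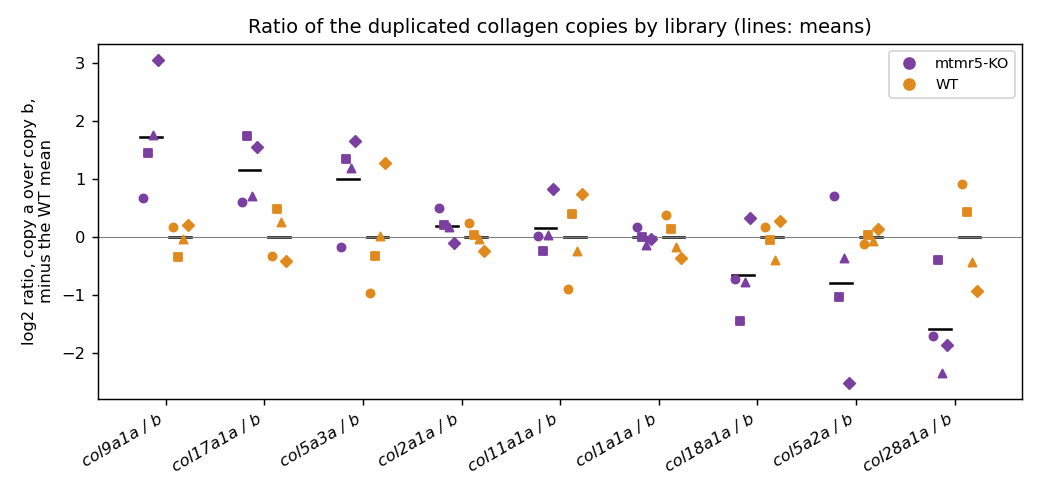
Log2 ratio of copy a to copy b of 9 duplicated collagens in each *mtmr5*-KO and WT library (y axis, with the WT mean of each pair set to 0; lines are group means; shapes give replicates as in the other plots: circle 1, square 2, triangle 3, diamond 4). The *mtmr5*-KO libraries lie wholly above the WT libraries for *col9a1* (difference of means 1.74) and *col17a1* (1.16).

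Few of the genes that make, modify, break down or bind collagen passed the test. The list, called making and breakdown genes below, also holds receptors, 9 of them tested, of which 1 rose and 0 fell. Of 91 listed, 62 were tested, of which 2 rose, 1 fell and 59 did not pass, with a median log2 fold change of −0.0016. The shares were 3.23% higher and 1.61% lower, beside 13.5% and 7.51% of all rows. *colgalt1b*, which attaches galactose to hydroxylysine of collagen, had 6.12, 4.30, 6.07 and 3.66 CPM in *mtmr5*-KO and 2.65, 1.84, 2.66 and 1.54 CPM in WT libraries, all *mtmr5*-KO above all WT, for a log2 fold change of 1.21 (SE 0.31, adjusted p = 0.0105). *sec23a*, a component of the COPII coat through which procollagen leaves the endoplasmic reticulum, had 16.6, 22.98, 19.2 and 20.8 CPM in *mtmr5*-KO and 29.0, 32.1, 32.4 and 30 CPM in WT libraries, all *mtmr5*-KO below all WT, for a log2 fold change of −0.63 (SE 0.15, adjusted p = 0.00634). *itgb1b.2*, an integrin beta chain, was at 1.26 (SE 0.42, adjusted p = 0.0450) with overlapping groups. With library totals in place of TMM, 0 of the 62 were called higher and 34 lower, beside 719 and 10819 of all 19412 rows.

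By role, 0 of 13 prolyl and lysyl hydroxylases, 0 of 7 procollagen processing genes, 0 of 5 cross-linking genes and 0 of 12 collagen breakdown genes were called. *p4hb*, the shared subunit of prolyl hydroxylase, stood at −0.013 and *plod3*, a lysyl hydroxylase, at −0.040. *serpinh1b*, the collagen chaperone Hsp47, was at 0.47 (adjusted p = 0.198), and *ppib*, a prolyl isomerase of the same compartment, at −0.42 (adjusted p = 0.0535). Among 22 genes listed for fibril-associated and other matrix proteins, 3 rose (13.6%, beside 13.5% of all rows called higher) and 0 fell. These were *fn1b* (fibronectin) at 1.36 (SE 0.30, adjusted p = 0.00397), *tnr* (tenascin R, a matrix protein of the nervous system) at 0.85 (SE 0.21, adjusted p = 0.00818) and *bgnb* (biglycan) at 0.51 (SE 0.17, adjusted p = 0.0412).

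Lists for cells outside connective tissue also moved with genotype beside the collagen values, where 13.5% of all rows rose and 7.51% fell. Of 19 skeletal muscle markers 9 rose and 1 fell, with sums of 565 to 727 CPM in *mtmr5*-KO and 370 to 430 CPM in WT libraries. Of 15 neuron markers 9 rose and 2 fell, and of 13 liver markers 9 rose and 0 fell, the liver list summing to 146 to 417 CPM in *mtmr5*-KO and 82.8 to 118 CPM in WT libraries. Their part in the collagen values was not tested.

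Collagen genes varied more among *mtmr5*-KO than among WT libraries, with a median coefficient of variation of 33.1% in *mtmr5*-KO and 24.5% in WT libraries. This value was not computed for all rows, so the wider spread is not shown to be particular to collagens. Whole libraries correlated at 0.909 to 0.935 within *mtmr5*-KO and at 0.961 to 0.976 within WT. Collagen counts were also fewer, 7292 to 11816 in *mtmr5*-KO against 16833 to 25664 in WT libraries. The part of either in this spread was not tested. Replicate 1 was the highest *mtmr5*-KO library for 17 of the 47 members and WT replicate 1 the highest WT library for 25. All collagens summed to 882, 718, 721 and 702 CPM in *mtmr5*-KO and 716, 657, 630 and 604 CPM in WT libraries, groups that overlap by WT replicate 1, for a ratio of means of 1.16. Members had a median of 768 counts over the 8 libraries, where all rows had 980, and 15 of the 47 were under 10 counts in at least 1 library, which left wide intervals for sparse genes such as *col27a1b* (−1.98 to 2.11).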

How the data were processed

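Total RNA of dissected larval heads (7 dpf) gave 8 libraries, 4 *mtmr5*-KO and 4 WT. Per the submitters' processing notes and the methods of the study, read trimming by the authors used Trim Galore 0.6.7, alignment to GRCz11 used STAR 2.7.11a, and unique reads were counted per gene by HTSeq 2.0.5. The deposited values used here are these whole-number counts. For the strand option of the counting, nothing is given in the sources used here, and reads of overlapping antisense genes may not have been told apart. The deposited normalized table was not used.

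Rows reaching 10 counts in 3 or more libraries were tested with edgeR 4.0.16 in R 4.3.3 (TMM factors, quasi-likelihood test with robust=TRUE, genotype as the only term). P-values were adjusted over all 19412 rows by Benjamini-Hochberg, and a gene was called at an adjusted p under 0.05. The SE is the log2 fold change over the square root of F, and intervals are 95%. The fit was also run on simulated data with equal numbers of rises and falls. These lacked the shift in the most abundant rows between the genotypes, so they do not test the scaling. DESeq2 1.42.0, limma 3.58.1 (voom), other scalings, filters and thresholds, a replicate block and leaving out each library were tried as alternatives, with 2 more added after the data were seen (without *mtmr5*-KO replicates 3 and 4, and without the 20 most abundant rows). Figures used matplotlib 3.10.9 and Python 3.11.15.

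The members, classes and gene lists were chosen with earlier results of these data known. Genes were named when called, as the other copy or chains of a called collagen, or as 1 of the 3 with the highest mean CPM of a class, and for the other lists as the 2 genes of a role with the smallest p among those called. *col4a3*, *col4a4*, *col9a1a*, *col9a1b*, *col10a1a*, *col17a1b*, *sox6* and the remaining genes outside this rule were chosen after their values were seen. No gene lengths were used, so levels are compared between libraries, not between genes. Neighbouring genes were taken from the RefSeq gene table of GRCz12tu, in which 45 of the 47 members were matched. No sequences are shown, since no sequence table of this genome was used here.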

Additional observations from a re-analysis of the deposited data

Results flagged for a closer look

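In 106 groups of 4 libraries (the collagen genes and their summed levels in each genotype), 8 had 1 library far from the others by Dixon's test, or 7.55%, where chance alone gives about 1 in 20. In *mtmr5*-KO, *col5a2a* was highest in replicate 1 at 10.1 CPM (the nearest library had 8.50 CPM), *col23a1a* was highest in replicate 1 at 2.76 CPM (nearest 0.861 CPM), and *col11a1b* was lowest in replicate 4 at 2.31 CPM (nearest 5.05 CPM). In WT, *COL4A1* and *COL4A2* were both highest in replicate 2, at 1.098 CPM (nearest 0.419 CPM) and 0.743 CPM (nearest 0.466 CPM). *col18a1a* was highest in WT replicate 1 at 19.9 CPM (nearest 12.6 CPM), as was *col6a4a* at 2.37 CPM (nearest 1.49 CPM). The sum of all 47 collagens was highest in *mtmr5*-KO replicate 1 at 881.8 CPM, where the nearest library had 721.1 CPM. None of the single genes with such a library was called.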

How the results depend on the processing

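Scaling by library totals moved the median of all rows to −0.98 and with it the collagen medians (all members −0.68, fibrillar −0.46, cartilage −0.86, basement membrane −0.94, skin −1.049, other −0.83), gave 0 members higher and 22 lower (0 and 10 at the study thresholds) and 0 making and breakdown genes higher and 34 lower, and put 40 of the 47 members below 0. This turned the sign of 23 members, 15 of them called in neither fit, and of the 8 called in one of the fits put *col1a1a* at −0.48, *col1a1b* at −0.46, *col1a2* at −0.57, *COL5A1* at −0.89, *col5a2a* at −0.77, *col2a1a* at −0.87, *col9a2* at −0.92 and *col11a1a* at −0.68. In that fit 719 of all 19412 rows were called higher and 10819 lower. Relative to all rows the collagen median was 0.30 there and 0.29 with TMM, a likeness that follows almost by construction, since scaling shifts all rows alike.

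Members called higher numbered 2 at an adjusted p under 0.01, 7 under 0.1, 1 without *mtmr5*-KO replicates 3 and 4 and 2 to 5 with each library left out. Members called lower numbered 1 under 0.1, with no count filter, with DESeq2 and without *mtmr5*-KO replicates 3 and 4, 2 with limma-voom and 0 to 2 with each library left out. At the study thresholds voom gave 1 higher, as did the fit without *mtmr5*-KO replicates 3 and 4, and leaving out each library gave 1 to 2 higher and 0 to 1 lower. *col4a3* was the lower call of DESeq2 (adjusted p = 0.0294) and *col9a1b* and *col4a3* those of voom. Over all 19412 rows, calls higher and lower numbered 2618 and 1457 in the main fit and 3047 and 1981 with DESeq2. They were 2586 and 1408 with limma-voom, and 1581 and 798 without *mtmr5*-KO replicates 3 and 4. With no count filter they were 2499 and 1674 of 27636 rows. With each library left out they ran from 2011 to 2778 and from 744 to 1829. Counts over all rows at the other thresholds are not given here. Making and breakdown genes called lower numbered 2 with RLE factors, 3 with no count filter, 4 with DESeq2, 3 with voom, 2 without *mtmr5*-KO replicates 3 and 4, 2 without the 20 most abundant rows and 1 to 4 with each library left out (higher: 1 to 2). Left-out libraries moved the class medians over 0.16 to 0.34 (all members), 0.40 to 0.65 (fibrillar), −0.025 to 0.34 (cartilage), −0.091 to 0.22 (basement membrane), −0.21 to 0.033 (skin) and 0.064 to 0.26 (other). The cause of these shifts was not tested.

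After each gene's mean log2 level in its genotype was taken off, same-numbered libraries of the genotypes correlated at 0.103, 0.168, 0.0906 and 0.145. Each library correlated best with its own number. These are correlations of what is left after that step, not of whole libraries. The paper compares the knockouts with WT siblings, but no label states that same-numbered libraries share a breeding pair. For that reason, and with replicate 3 under 0.1, the numbers were not taken as pairs. Whether they are pairs was not settled. With the replicate block 7 members were called higher and 3 lower (lower at the study thresholds: 1), and 5 making and breakdown genes higher and 4 lower. The block added *col1a2*, *col9a1a* and *col17a1a* to the higher calls and *col4a3*, *col9a1b* and *col15a1b* to the lower ones. With 7292 to 11816 collagen counts in *mtmr5*-KO libraries, members under 10 counts in a library cannot show less than large changes.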

Other observations

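Collagens that the count table lists only by identifier were not members, and 5 of 6 such rows passed the count filter, with symbols taken from the gene name table. None was called. *COL6A3* (ENSDARG00000077139), the large chain of the type VI filament, had 6.57, 5.50, 5.05 and 3.66 CPM in *mtmr5*-KO and 11.9, 7.17, 7.02 and 7.10 CPM in WT libraries. All *mtmr5*-KO libraries were below all WT libraries, and the log2 fold change was −0.67 (SE 0.26, 95% interval −1.21 to −0.13, adjusted p = 0.0759 by edgeR's quasi-likelihood test). *col14a1b* (ENSDARG00000076623), the second copy of the type XIV gene, had 7.24, 5.69, 7.10 and 12.2 CPM in *mtmr5*-KO and 11.0, 7.59, 8.70 and 12.4 CPM in WT libraries. Its groups overlapped, with a log2 fold change of −0.31 (95% interval −0.84 to 0.23). The remaining 3 rows had log2 fold changes of −0.17 for *col19a1*, −0.18 for a row named *col7a1l* and −0.90 for a row named *col24a1*, all 3 being names that other rows already carry.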
